A study of Mus musculus with 6 samples.

Results

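The 35 genes described here encode the contractile and adhesion-linked actin cytoskeleton of a fibroblast. They were taken by name from a list drawn up with earlier results of these data known, by a rule that uses no measured value, and all 35 were found among the 54532 genes of the deposited table. By role they comprised 10 genes of the smooth-muscle type, 11 genes of the non-muscle actomyosin system, 4 tropomyosins and 10 adhesion-linked actin-binding proteins. The data were RNA-seq libraries of mouse cells labelled primary lung fibroblasts, 3 labelled NC and 3 labelled calumenin KD. The titles call the treated group a knockdown and the descriptions call the same libraries knockout and the NC libraries wild type, and no strain, age or culture time is given. Calumenin is a calcium-binding protein of the secretory pathway, and the series asks how its loss affects senescence and fibrosis signalling. Nothing states that libraries came from separate cultures or animals, so p-values measure the spread between these libraries, which may be technical.

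A resting fibroblast contracts and adheres with non-muscle actins, non-muscle myosin II and short tropomyosins. When it becomes a myofibroblast, it adds smooth-muscle proteins such as alpha-smooth muscle actin, transgelin and calponin 1 to these filaments. Both sets of genes include targets of the transcription factor SRF, which binds a sequence known as the CArG box and is coactivated by MRTF proteins when free actin monomers run low. Alpha-smooth muscle actin, encoded by Acta2, is the usual marker of the myofibroblast in fibrotic lung.

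The CArG box was searched for in RefSeq promoters of build GRCm38.p6, each covering 250 bases before to 50 after a gene start. Of the 35 members, 32 matched by symbol, with 41 promoters in all, and Actb, Actg2 and Tagln had no entry and were not searched. The box was present in 8 of these promoters (19.5%), belonging to 7 genes, against 1.63% of all 32851 promoters. The pattern searched was CC, then only A or T, then GG, 10 bases in all with no mismatch. Boxes that depart from it or lie outside these windows were not counted, so a gene without a match may still have one. The pattern is its own reverse complement, so both strands were covered. The sequence CATTCC, searched on either strand as the core of TEAD factor sites, was present in 13 member promoters (31.7%) against 14.7% of all. The boxes are shown because they occurred in members at opposite ends of the expression range, with the box in capitals and 10 bases on each side.
Myl9, chr2:156775293-156775322 (plus strand): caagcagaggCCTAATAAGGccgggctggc
Fhl1, chrX:56779571-56779600 (plus strand): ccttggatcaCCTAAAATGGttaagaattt
Vcl, chr14:20929161-20929190 (plus strand): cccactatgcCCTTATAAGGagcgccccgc
Fhl2, chr1:43163973-43164002 (minus strand): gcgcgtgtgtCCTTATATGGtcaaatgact
Fhl2, chr1:43196838-43196867 (minus strand): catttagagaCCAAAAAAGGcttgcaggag
Actg1, chr11:120348566-120348595 (minus strand): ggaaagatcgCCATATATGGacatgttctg
Cnn2, chr10:79988534-79988563 (plus strand): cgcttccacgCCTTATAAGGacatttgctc
Myl6, chr10:128493040-128493069 (minus strand): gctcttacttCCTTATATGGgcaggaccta
Vcl and Cnn2 carried the same 10 bases, as did Myl6 and the downstream promoter of Fhl2. A match of letters is a description of these windows and does not show binding.

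Levels are given in FPKM, reads scaled by gene length and library size. Comparisons between genes are approximate, as they depend on the length listed for each gene and on the authors' read assignment. The depth recovered from the values was 15907164 to 18312888 reads per library, and the members took 1.05% to 1.27% of them. Calu itself fell from 224 ± 3.43 to 13.4 ± 1.07 FPKM (SD, n = 3 each). Of 12 fibroblast markers 8 reached 1 FPKM, among them Col1a1, Col1a2, Fn1 and Vim, but Lum and Tcf21 were listed at 0 in all 6 libraries and Dcn and Thy1 near 0. Of 8 smooth muscle and pericyte markers only Des and Cspg4 reached 1 FPKM, and Rgs5 and Kcnj8 were listed at 0. Macrophage markers summed to 4.83 to 5.66 FPKM in NC and 3.22 to 5.15 in KD, mesothelial markers to 13.8 to 14.9 and 10.7 to 14.3, nearly all of it Msln, and neither the epithelial nor the endothelial sum reached 1 FPKM. In cultures such as these, fewer cells of a kind and less RNA per cell cannot be told apart. KD1 stood apart from KD2 and KD3 in several members, so results are given with and without it.

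Of the 28 members with a mean of at least 1 FPKM, the level set for testing, 5 rose and 4 fell in KD by limma at a Benjamini-Hochberg adjusted p under 0.05. The genes that rose were Pdlim5, Tpm2, Actn1, Mylk and Smtn, and those that fell were Zyx, Vcl, Fhl2 and Tpm3. That is 17.9% higher and 14.3% lower, where 10.9% of all 12299 tested genes were higher and 13.6% lower. In either direction 32.1% of the tested members were called, against 24.5% of all genes. The median difference over the 28 members was 0.05 on the log2(FPKM + 1) scale, against 0.01 over all tested genes. KD and NC values did not overlap in 12 of the 28 (42.9%), close to the 44.2% of all tested genes. The remaining 7 members, 5 of them of the smooth-muscle type, were below 1 FPKM in both groups and were not tested.

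**Figure D1:**
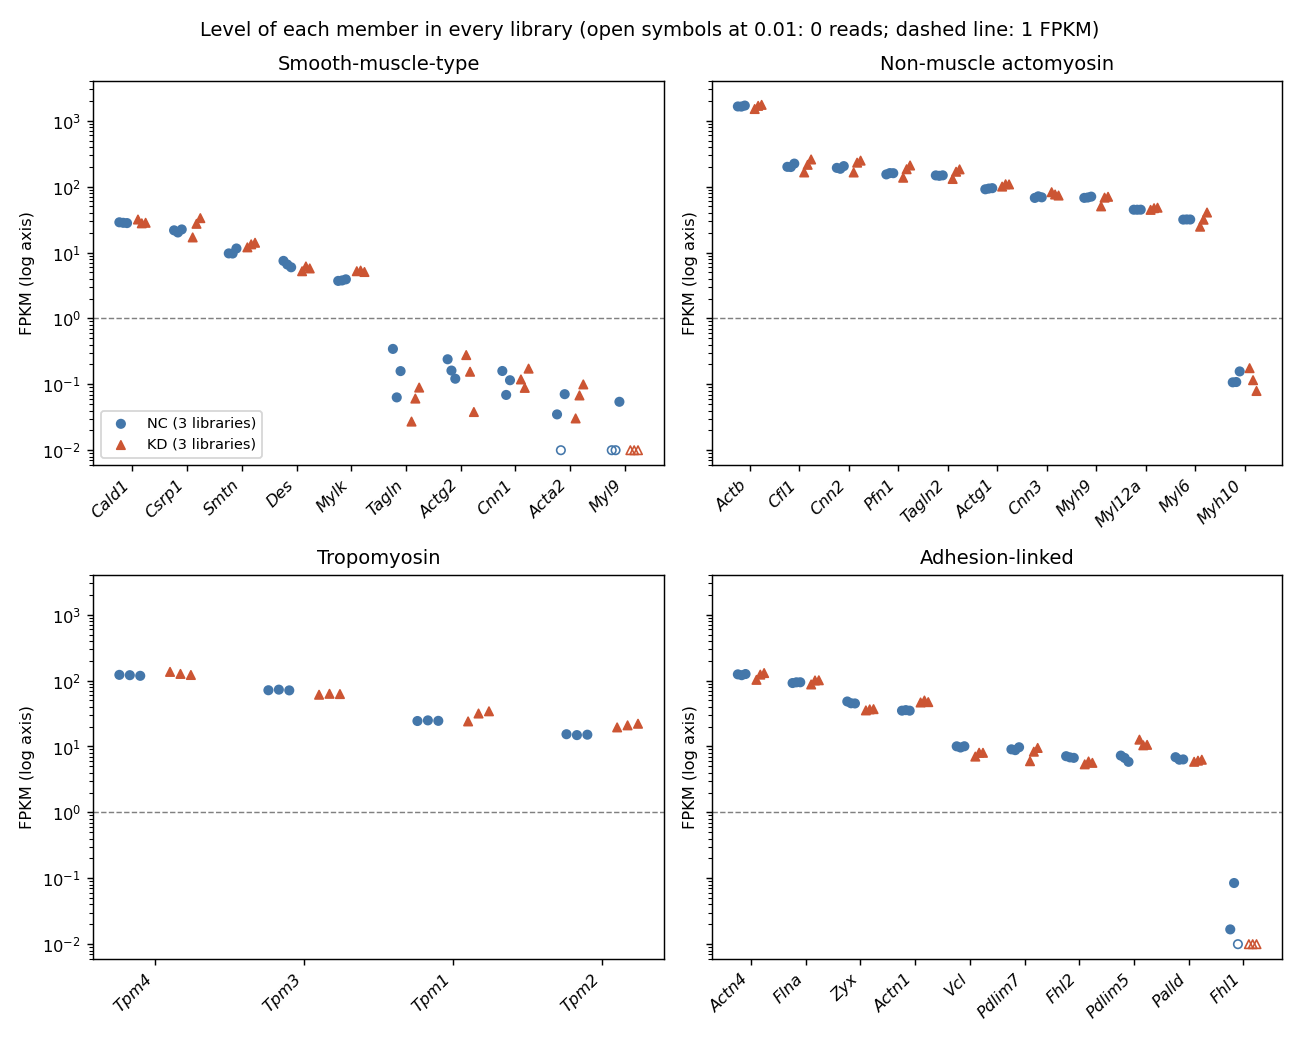
FPKM of the 35 members in each of the 3 NC (circles) and 3 KD (triangles) libraries, by role, on a log axis, with open symbols at 0.01 for libraries with 0 reads and a dashed line at 1 FPKM. Actb is at 1504 FPKM or more in every library, while Acta2, Actg2, Tagln, Cnn1 and Myl9 are all below 0.35 FPKM in both groups.

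The genes usually taken to define a myofibroblast were listed at 11 reads or fewer per library in both groups. Some genes that most cells use were listed as low in the same table: Tmsb4x, a thymosin that binds actin monomers, had 0 reads in all 6 libraries, and Ilk, which encodes integrin-linked kinase, had 4 to 11. Low expression and reads lost in the authors' assignment cannot be told apart for such genes. Acta2, on chromosome 19 at 34241090 to 34255336 (mm10, minus strand), had 1, 0 and 2 reads in NC1, NC2 and NC3 and 1, 2 and 3 reads in KD1, KD2 and KD3. These were 0 to 0.0709 FPKM in NC and 0.0303 to 0.0996 in KD, and only KD3 reached 3 reads, the limit of detection used here. Actb, the cytoplasmic actin, had 69739 to 78809 reads in the same libraries. Actg2, which encodes enteric smooth muscle gamma-actin, had 13 reads over the NC libraries and 13 over the KD libraries. Cnn1, which encodes the smooth-muscle calponin, had 15 and 18 reads. Myl9, a regulatory light chain of smooth-muscle myosin, had 1 read in NC3 and 0 elsewhere.

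Tagln, which encodes the actin-binding protein transgelin, had 11, 2 and 5 reads in NC1, NC2 and NC3 and 1, 2 and 3 reads in the KD libraries. The groups overlapped. The exact 95% Poisson intervals, which cover counting error only, were 10.7 to 28.4 for the 18 NC reads and 2.20 to 13.1 for the 6 KD reads. The span of Tagln also overlaps Pcsk7 on the opposite strand, at 6.97 to 9.38 FPKM, and the strand setting of the counting is not given in the sources used here. Without the filter none of the 5 low genes of this type passed limma, with adjusted p from 0.368 for Tagln to 0.884 for Actg2. Of 13 other genes listed here as smooth-muscle contractile genes 11 had a mean below 1 FPKM. That list is broad and includes Ldb3, a Z-disc protein gene, so the count is not one of smooth-muscle genes alone. Within it Myh11, the smooth-muscle myosin heavy chain, had 0 reads in NC and 1 in KD.

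The other 5 members of the smooth-muscle type had a mean of at least 1 FPKM, among them the smooth muscle and pericyte marker Des. Mylk and Smtn, 2 of the 5, rose, where 10.9% of all tested genes were higher. The Smtn call did not hold without some single libraries, as given below. Mylk, the kinase that phosphorylates the myosin regulatory light chain and so starts contraction, had 3.71, 3.77 and 3.92 FPKM in NC1, NC2 and NC3 and 5.20, 5.32 and 5.06 FPKM in KD1, KD2 and KD3. All KD values were above all NC values and the KD libraries lay close together. Mylk, on chromosome 16 at 34745210 to 35002420, differed by 0.37 on the log2(FPKM + 1) scale (SE 0.06, limma adjusted p = 0.00723), and the call held without any one library (adjusted p at most 0.0411).

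Smtn, which encodes the actin-binding protein smoothelin, had 9.69, 9.65 and 11.5 FPKM in the NC libraries and 11.97, 13.3 and 14.1 FPKM in the KD libraries. The groups did not overlap, but NC3 came close to KD1. Smtn, on chromosome 11 at 3517523 to 3540612, differed by 0.32 (SE 0.09, limma adjusted p = 0.0434). The call ended without NC1 (0.145), NC2 (0.148), KD2 (0.131) or KD3 (0.103), with chromosome medians removed (0.0800), and with no filter, no intensity trend or array weights (0.0522 to 0.0928).

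Csrp1, Cald1 and Des did not pass with all 6 libraries. Csrp1, a LIM protein of actin bundles, had 20.1 to 22.4 FPKM in NC and 16.9, 27.3 and 33.2 FPKM in KD1, KD2 and KD3, so KD1 lay below all NC libraries and the others above them. Its difference was 0.21 (95% interval -0.32 to 0.74, limma adjusted p = 0.526). Without KD1 it was 0.47 (adjusted p = 0.00998). Cald1, which encodes the thin-filament protein caldesmon, had 27.96 to 28.7 FPKM in NC and 27.7 to 31.7 in KD (difference 0.04, 95% interval -0.11 to 0.20, limma adjusted p = 0.682). With chromosome medians removed Cald1 passed as higher (0.26, limma adjusted p = 0.0359); it lies on chromosome 6, where the median tested gene differed by -0.22. Des, the intermediate filament protein desmin, had 5.97 to 7.46 FPKM in NC and 5.20 to 6.14 in KD (difference -0.19, 95% interval -0.42 to 0.03, limma adjusted p = 0.18).

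The non-muscle genes included Actb, the most abundant member. With all 6 libraries 0 of the 10 tested passed limma, where 24.5% of all tested genes were called, 10.9% higher and 13.6% lower. At an unadjusted p under 0.05, 2 of the 10 were higher, Actg1 and Cnn3, where 18.7% of all tested genes were higher at that level. Voom on the recovered reads called the same 2 at an adjusted p under 0.05, where it called 14.9% of all genes higher. Actb had 1646, 1638 and 1697 FPKM in NC1, NC2 and NC3 and 1504, 1680 and 1739 FPKM in KD1, KD2 and KD3. The KD libraries lay on both sides of the NC libraries, with a difference of -0.02 (95% interval -0.19 to 0.15, limma adjusted p = 0.868). Without KD1 the sign turned, to 0.04 (adjusted p = 0.467).

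Actg1, the other cytoplasmic actin, had 91.1, 93.3 and 94.7 FPKM in NC and 100, 109 and 108 FPKM in KD. All KD values were above all NC values, and the difference of 0.18 (SE 0.06) just missed the threshold (limma adjusted p = 0.0579). It passed without KD1 (0.22, adjusted p = 0.00537), with equal totals, quantile normalization, array weights or a GC and length trend removed, and by voom (0.22, adjusted p = 0.0281). The share of Actg1 in the summed FPKM of Actb and Actg1 was 5.24% to 5.39% in NC and 5.85% to 6.24% in KD. The longest stretch identical between Actb and Actg1 transcripts was 62 bases, so reads from such stretches could be split between them.

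Myh9, the main non-muscle myosin heavy chain of these cells, had 67.5, 68.3 and 70.4 FPKM in NC and 50.1, 68.0 and 70.0 FPKM in KD. Only KD1 was low (difference -0.15, 95% interval -0.45 to 0.16, limma adjusted p = 0.438), and without it the difference was 0.01. Its relative Myh10 was listed far lower, with 62 reads over the NC libraries and 68 over the KD libraries, at mean levels of 0.124 ± 0.0284 and 0.123 ± 0.0488 FPKM (SD, n = 3). The light chain genes Myl12a and Myl6 had 44.6 to 44.7 and 31.6 to 31.7 FPKM in NC. In KD they had 44.4 to 47.8 and 24.6 to 40.4 FPKM, with KD1 lowest in both. Myl12a shares an identical stretch of 529 bases with Myl12b and overlaps the gene AC154187.2 on the same strand, so its reads could be split.

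Of the proteins that turn filaments over or stabilise them, Cfl1 (cofilin, which severs filaments), Pfn1 (profilin, which loads actin monomers), Cnn2 (calponin 2) and Tagln2 (transgelin 2) shared a pattern over the libraries. Cfl1 had 200, 198 and 223 FPKM in NC and 164, 214 and 258 FPKM in KD1, KD2 and KD3, a difference of 0.01 (95% interval -0.37 to 0.39, limma adjusted p = 0.963). Pfn1 had 153, 160 and 160 FPKM in NC and 136, 183 and 209 in KD. Cnn2 had 192, 186 and 205 FPKM in NC and 164, 231 and 248 in KD. In each of these genes KD1 was below, and KD3 above, all NC libraries. Tagln2 followed it too, with 146 to 148 FPKM in NC and 131, 168 and 183 FPKM in KD. With all 6 libraries the limma adjusted p was 0.536 for Pfn1, 0.611 for Cnn2 and 0.552 for Tagln2. Without KD1 these 3 were higher by 0.31 (adjusted p = 0.0115), 0.30 (0.00884) and 0.25 (0.0083). Cfl1 still did not pass (0.18, adjusted p = 0.167). Cnn3, an acidic calponin of non-muscle cells, ran the other way, with 67.4 to 71.2 FPKM in NC and 82.2, 75.9 and 73.2 FPKM in KD (difference 0.15, limma adjusted p = 0.116).

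Tropomyosins, the coiled-coil proteins that run along actin filaments and set which proteins can bind them, changed in both directions. Tpm2 had 15.3, 14.9 and 15.1 FPKM in NC and 19.5, 20.9 and 22.1 FPKM in KD, a ratio of means of 1.38. Tpm3 had 71.3, 72.8 and 71.0 FPKM in NC and 60.9, 63.0 and 62.4 FPKM in KD, a ratio of 0.866. Neither gene's groups overlapped. Tpm2, on chromosome 4 at 43514711 to 43523765, rose by 0.44 on the log2(FPKM + 1) scale (SE 0.06, limma adjusted p = 0.0042), and this call held without any one library (adjusted p at most 0.0284). Tpm3, on chromosome 3 at 90072649 to 90100902, fell by 0.20 (SE 0.05, limma adjusted p = 0.0235). That call ended without NC1 (0.0962), NC2 (0.115), NC3 (0.0870) or KD2 (0.0783) and with equal totals, quantile normalization or the replicate number as a block (0.05001 to 0.0838).

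Tpm1 had 24.3, 24.9 and 24.5 FPKM in NC and 24.0, 31.6 and 34.2 FPKM in KD. It did not pass with KD1 (difference 0.26, limma adjusted p = 0.175) and passed without it (0.41, adjusted p = 0.00166). Tpm4, the most abundant tropomyosin gene, had 118 to 122 FPKM in NC and 122 to 135 in KD (difference 0.08, 95% interval -0.06 to 0.22, limma adjusted p = 0.335). The summed FPKM of the 4 genes ran from 229 to 233 in NC and from 240 to 242 in KD. Within that sum the share of Tpm2 was 6.38% to 6.60% in NC and 8.12% to 9.21% in KD, and that of Tpm3 was 30.6% to 31.2% and 25.4% to 26.1%. The shares of Tpm1 and Tpm4 overlapped between groups. The longest identical stretch between transcripts of any pair of these genes was 37 bases. The table gives whole genes, so the long and short isoforms of each tropomyosin cannot be told apart.

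**Figure D2:**
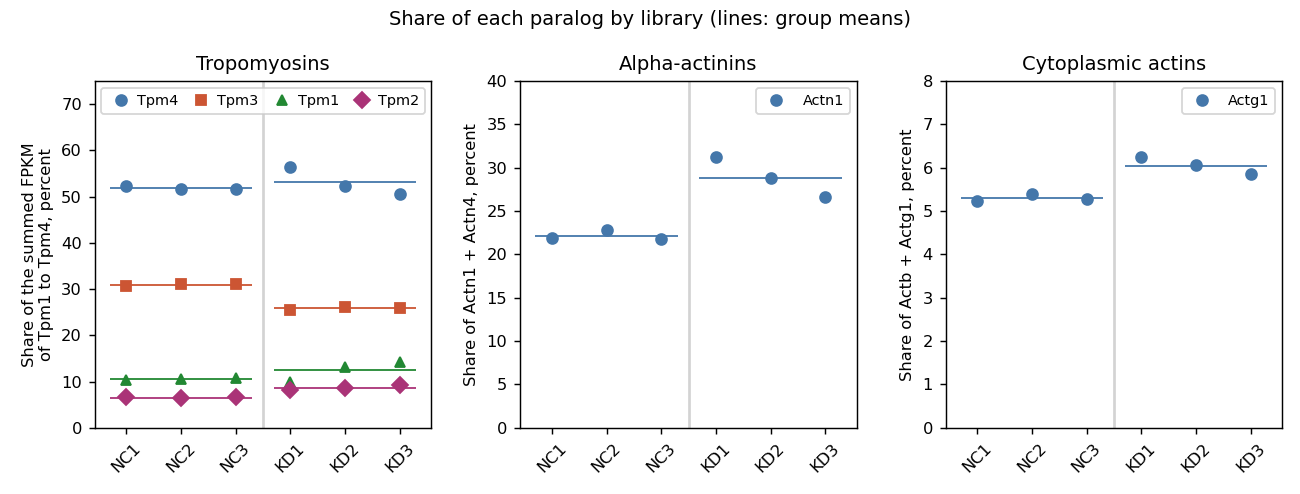
Share of each gene in the summed FPKM of its family, in percent, for each of the 6 libraries: the 4 tropomyosins (left), Actn1 in Actn1 plus Actn4 (middle) and Actg1 in Actb plus Actg1 (right), with lines at the group means. Tpm3 drops from 30.95% to 25.8% and Tpm2 goes from 6.52% to 8.66%, while Actn1 goes from 22.2% to 28.9%.

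Adhesion-linked proteins anchor filaments at focal adhesions and along stress fibres, and 5 of the 9 tested changed, 2 up and 3 down, where 24.5% of all tested genes were called, 10.9% higher and 13.6% lower. The 3 falls ended with chromosome medians removed, and 2 of them also with single libraries left out. Pdlim5, a PDZ and LIM protein that binds alpha-actinin, had 7.27, 6.70 and 5.85 FPKM in NC1, NC2 and NC3 and 12.7, 10.4 and 10.6 FPKM in KD1, KD2 and KD3. It had the largest ratio of means of the 28 tested members, 1.70, and KD1 was the highest library. Pdlim5, on chromosome 3 at 142239590 to 142395696, differed by 0.68 (SE 0.10, limma adjusted p = 0.00498). Its relative Pdlim7 had 8.80 to 9.73 FPKM in NC and 5.97, 8.33 and 9.50 FPKM in KD, with overlapping groups (difference -0.21, 95% interval -0.56 to 0.14, limma adjusted p = 0.34). The share of Pdlim5 in the sum of the pair was 37.5% to 44.6% in NC and 52.7% to 68.0% in KD.

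Actn1, the alpha-actinin that crosslinks stress-fibre actin, had 34.9, 35.6 and 34.9 FPKM in NC and 46.5, 49.8 and 47.1 FPKM in KD. All KD libraries were high, and the difference was 0.43 (SE 0.05, limma adjusted p = 0.00221). Actn1 is on chromosome 12 at 80167547 to 80260371. Actn4, the other non-muscle alpha-actinin and the more abundant of the pair, had 121 to 126 FPKM in NC and 103, 123 and 130 FPKM in KD (difference -0.07, 95% interval -0.29 to 0.15, limma adjusted p = 0.637). Actn1 made up 21.7% to 22.8% of the pair in NC and 26.6% to 31.2% in KD. The calls of Pdlim5 and Actn1 held without any one library, with adjusted p of at most 0.0261 and 0.0199.

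Zyx, which encodes zyxin, a LIM protein that gathers at strained stress fibres, had 48.1, 45.2 and 44.97 FPKM in NC and 35.3, 36.6 and 36.9 FPKM in KD. The groups stood well apart, and the fall of 0.34 (SE 0.05, limma adjusted p = 0.00613) held without any one library. Zyx lies on chromosome 6 at 42349630 to 42360213, the chromosome of Calu, and with chromosome medians removed it was -0.12 and no longer passed (adjusted p = 0.163). Vcl, which encodes vinculin, the link between talin and actin, had 10.1, 9.65 and 10.1 FPKM in NC and 7.02, 8.03 and 8.01 FPKM in KD. Its difference was -0.33 (SE 0.07, limma adjusted p = 0.0153), and the call ended without NC1 (0.0675), NC2 (0.0551) or NC3 (0.0661). With chromosome medians removed it was -0.14 (0.194), the median of chromosome 14 being -0.19. Vcl, at 20929398 to 21033676, overlaps Ap3m1 on the opposite strand, which fell from 16.5 ± 0.853 to 11.6 ± 2.10 FPKM (SD, n = 3, limma adjusted p = 0.0292). The part of this neighbour in the Vcl result was not tested.

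Fhl2, a LIM-only cofactor of integrins and of SRF, had 7.12, 6.83 and 6.72 FPKM in NC and 5.36, 5.92 and 5.64 FPKM in KD, or 181 to 217 reads per library. The groups did not overlap, and the difference was -0.25 (SE 0.06, limma adjusted p = 0.0294). The call ended without NC1 (0.117), NC2 (0.101), NC3 (0.0835), KD2 (0.0650) or KD3 (0.0646), by voom (0.116), with no filter, equal totals or the replicate number as a block (0.0506 to 0.0743), and with chromosome medians removed (0.309), where the median of chromosome 1 was -0.15. Fhl2, at 43123074 to 43196984, also spans the opposite-strand pseudogene Gm8210, which rose from 30.4 ± 1.72 to 48.9 ± 9.17 FPKM (SD, n = 3, limma adjusted p = 0.0161), opposite in direction to Fhl2. Its relative Fhl1 had 1, 5 and 0 reads in NC and 0 in all 3 KD libraries.

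Flna, the filamin that crosslinks actin and binds integrins, had 91.8, 94.1 and 94.2 FPKM in NC and 87.3, 100 and 101 FPKM in KD (difference 0.04, 95% interval -0.13 to 0.21, limma adjusted p = 0.71). Without KD1 it was higher by 0.11 (adjusted p = 0.0448). Palld, the stress-fibre scaffold palladin, had 6.30 to 6.88 FPKM in NC and 5.86 to 6.29 in KD without overlap, and a difference of -0.09 (95% interval -0.24 to 0.06, limma adjusted p = 0.36). With chromosome medians removed Palld passed as lower (-0.26, adjusted p = 0.0331), on a chromosome, 8, whose median was 0.17.

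**Figure D3:**
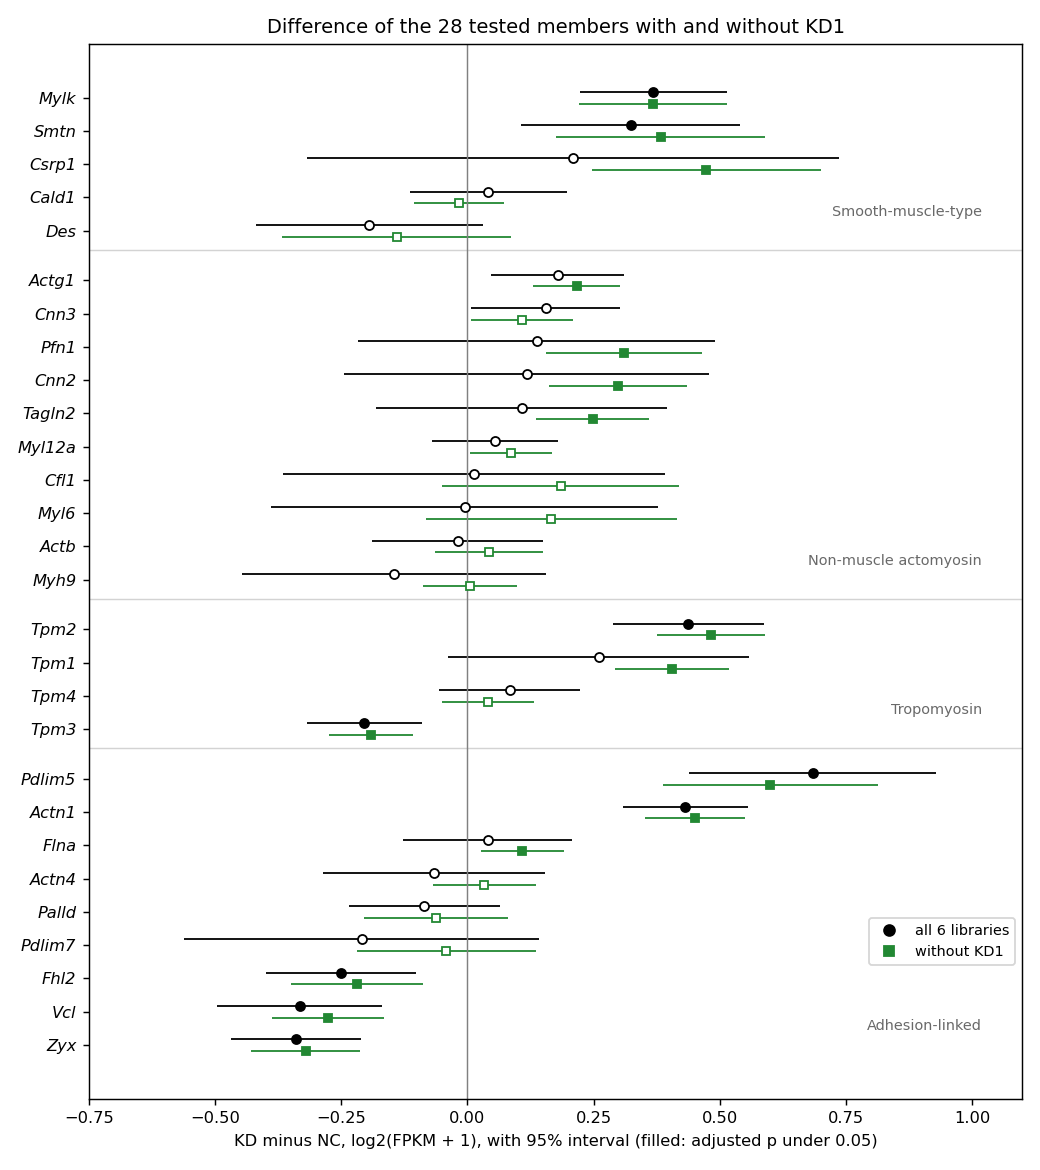
Difference of KD minus NC on the log2(FPKM + 1) scale for the 28 tested members by role, with 95% intervals from limma, for all 6 libraries (black circles) and without KD1 (green squares); filled symbols have an adjusted p under 0.05. Filled symbols go from 9 with all libraries to 16 without KD1, the added ones all to the right of 0.

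How many members were called depended on KD1. Without it 12 rose and 4 fell, or 57.1% of the 28 called against 42.4% of all tested genes, and the 12 are 42.9% of the members where 20.9% of all genes were higher; the 4 lower members are 14.3%, where 21.5% were lower. The 9 members called with all libraries were called again in the same direction. The 7 added were Actg1, Pfn1, Cnn2, Tagln2, Tpm1, Csrp1 and Flna, all higher. By role, 4 of 10 non-muscle, 3 of 5 smooth-muscle-type, 2 of 4 tropomyosin and 3 of 9 adhesion-linked genes were then higher. KD1 was the lowest of the KD libraries in 23 of the 28 members (82.1%) and in 43.7% of all tested genes; the exceptions were Mylk, Cald1, Cnn3, Tpm4 and Pdlim5. In 9 members (32.1%) KD1 was below the NC mean while KD2 and KD3 were above it, as in 12.4% of all tested genes.

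Base composition was set against the deviation of each KD library from the NC mean. The median GC content of the tested members was 53.1%, against 49.3% over all tested genes. Across the 28 members, whose values share the same NC mean, the deviation of KD1 from that mean had a Pearson correlation of -0.44 with GC content, against -0.03 for KD2 and 0.08 for KD3. Over 12282 tested genes with a GC value the correlations were -0.14 for KD1, 0.21 for KD2 and 0.31 for KD3, so there KD1 had the smallest in size. KD1 also had 2.56% of its reads on mitochondrial genes, against 1.60% to 1.97% in the other libraries. With a trend on GC content and length removed, 8 members were higher (28.6%) and 5 lower (17.9%), against 19.4% and 18% of all genes. In either direction 46.4% of the members were called, against 37.4% of all genes. That setting added Actg1, Cnn3, Tpm4 and Pdlim7 to the 9 calls, and Pfn1, Cnn2, Tagln2, Tpm1, Csrp1 and Flna did not pass under it. With chromosome medians removed instead, 5 members were higher (17.9%) and 2 lower (7.14%), where 8.75% and 11% of all genes were. In either direction 25% of the members were called, against 19.8% of all genes. Zyx, Vcl, Fhl2 and Smtn were then lost and Cald1 and Palld added. Whether RNA quality in KD1 had a part in these differences was not tested.

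**Figure D4:**
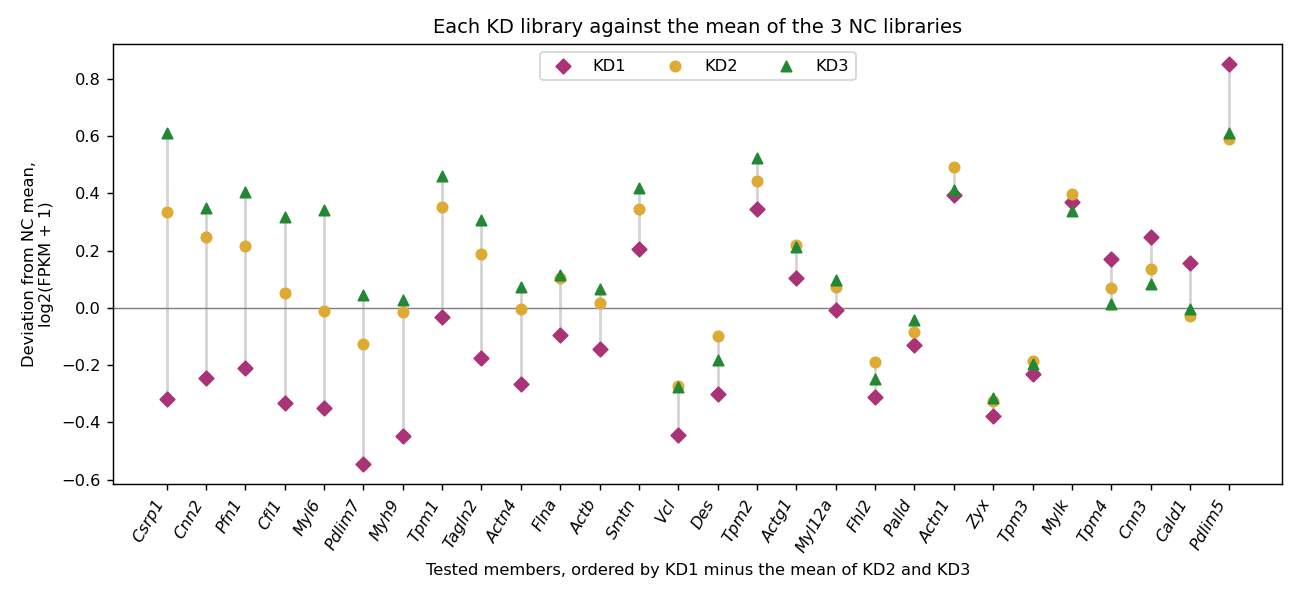
Deviation of KD1 (diamonds), KD2 (circles) and KD3 (triangles) from the mean of the 3 NC libraries on the log2(FPKM + 1) scale, for the 28 tested members ordered by KD1 minus the mean of KD2 and KD3. Csrp1, at the left, runs from -0.32 in KD1 to 0.61 in KD3, while the 3 libraries lie close together for Actn1, Zyx, Tpm3 and Mylk.

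The wider actin and adhesion machinery was covered by 130 further genes in 8 lists. Of 93 tested, 8 rose and 19 fell, or 8.60% and 20.4% against 10.9% and 13.6% of all genes, with a median difference of -0.05. Without KD1 19 rose and 30 fell, or 20.4% and 32.3% against 20.9% and 21.5% of all genes. Without any other single library 2 to 5 rose and 8 to 18 fell. In those fits 4.80% to 8.18% of all genes were higher and 7.50% to 11.8% lower. Of the 27 calls, 8 held without any one library, and with chromosome medians removed 13 held. Of the genes named below, Elk3, Elk4, Actr3, Arpc4, Capza2, Lims1, Fermt2, Flnc, Myl12b and Tnnt2 were among those that setting ended (adjusted p 0.0617 to 0.418). SRF itself, named after its values were seen, was at 24.3 ± 1.01 FPKM in the NC group against 27.6 ± 2.53 in the KD group (SD, n = 3, limma adjusted p = 0.159), and was higher by 0.24 without KD1 (adjusted p = 0.0147). Of the 7 tested genes for SRF and its cofactors 0 rose and 2 ETS-family partners fell, or 28.6% lower against 13.6% of all genes. These were Elk3, from 27.3 to 21.3 FPKM (limma adjusted p = 0.0101), and Elk4, from 8.30 to 6.80 (0.0484). Elk3 ended without NC3 or KD2 (0.0512 at most). Elk4 ended without any library but KD1 (0.0587 to 0.153) and under 10 other settings, voom and the replicate block among them.

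Among signalling genes that act on actin filaments, the formin gene Diaph3 fell from 28.2 ± 0.825 to 18.4 ± 2.60 FPKM and Limk1, the kinase that inactivates cofilin, from 22.5 ± 0.935 to 15.2 ± 1.93 FPKM (SD, n = 3, limma adjusted p = 0.00701 and 0.00873). Among 16 tested genes of branched actin nucleation 1 rose and 3 fell, or 6.25% and 18.8% against 10.9% and 13.6% of all genes. All 4 encode subunits of the Arp2/3 complex. Without KD1 2 rose and 9 fell, or 12.5% and 56.3% against 20.9% and 21.5% of all genes. Without NC1, NC2, NC3 or KD2 0 rose and 1 to 2 fell. In those fits 4.80% to 5.29% of all genes were higher and 7.50% to 7.99% lower. Without KD3 1 rose and 4 fell, where 8.18% of all genes were higher and 11.8% lower. The gene that rose, named after its values were seen, was Arpc1a, from 68.3 to 82.4 FPKM (limma adjusted p = 0.0263), which ended without NC1, NC2, NC3 or KD2 (up to 0.113). Arpc2 fell from 158 ± 1.01 to 119 ± 2.82 FPKM (limma adjusted p = 0.00199), which held without any one library. Actr3 fell from 53.7 to 43.5 FPKM (0.00925) and Arpc4 from 36.6 to 29.3 FPKM (0.0232). Their calls ended without NC1 or NC2 for Actr3 (up to 0.0562) and without NC1, NC2, NC3 or KD2 for Arpc4 (up to 0.0905), and for Arpc4 also with array weights (0.0960).

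Of 15 tested genes of filament turnover and capping 0 rose and 3 fell, or 20.0% lower against 13.6% of all genes. Without NC2 or NC3 0 fell, where 7.50% and 7.98% of all genes were lower. The capping protein gene Capza2 fell from 66.9 to 46.7 FPKM, the pointed-end cap gene Tmod3 from 21.6 to 17.1 FPKM and the cofilin partner gene Wdr1 from 36.0 to 28.7 FPKM (limma adjusted p = 0.0187, 0.0188 and 0.0134). All 3 calls ended without NC2 or NC3, and those of Capza2 and Tmod3 also without NC1 or KD2 (up to 0.0797), and Capza2 with no filter (0.0502). Of 24 tested focal adhesion adaptors 3 rose and 5 fell, or 12.5% and 20.8% against 10.9% and 13.6% of all genes. Without KD1 7 rose and 5 fell, or 29.2% and 20.8% against 20.9% and 21.5% of all genes. Without any other single library 1 to 2 rose and 2 to 4 fell. In those fits 4.80% to 8.18% of all genes were higher and 7.50% to 11.8% lower. Tns3, a tensin gene named after its values were seen, rose from 10.7 ± 0.372 to 14.2 ± 0.992 FPKM (SD, n = 3, limma adjusted p = 0.00934), which held without any one library. Ptk2, which encodes focal adhesion kinase, fell from 18.3 ± 0.707 to 13.5 ± 0.704 FPKM (SD, n = 3, limma adjusted p = 0.00486). Lims1, an adaptor that joins integrin-linked kinase to filaments, fell from 53.3 to 36.9 FPKM (0.0162), and Fermt2, the integrin activator kindlin-2, from 13.3 to 9.21 FPKM (0.0123). The Ptk2 call held without any one library, Fermt2 ended without KD2 (0.0529), and Lims1 without NC1, NC2, NC3 or KD2 (up to 0.0655).

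Of the tested paralogs of the members, the filamin gene Flnc fell from 71.6 to 50.4 FPKM (limma adjusted p = 0.00807), and the light chain gene Myl12b rose from 1.77 to 2.95 FPKM (0.0267). The Flnc call held without any one library, and that of Myl12b ended without any library but KD1 (up to 0.101) and with no filter (0.0806). Among the smooth-muscle contractile list 2 of 13 were tested: Ldb3, a Z-disc protein gene, fell from 7.80 ± 0.163 to 3.95 ± 0.178 FPKM (SD, n = 3, limma adjusted p = 0.000288), and the small heat-shock protein gene Hspb6 rose from 29.0 ± 0.973 to 40.1 ± 2.97 FPKM (0.00505). Both held without any one library. Of 15 striated muscle genes 3 were tested and only Tnnt2 was called, from 2.39 to 1.54 FPKM (limma adjusted p = 0.0358), a call lost without any library but KD1 (0.0536 to 0.124) and with no filter, array weights or the replicate block (0.0678 to 0.106).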

How the data were processed

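The authors deposited FPKM per gene for 6 libraries, with positions and gene length. Reads were paired-end and aligned with HISAT2 2.0.5, per the labels' protocols, to mm10, per the submitters' processing notes. The sources used here do not name the counting tool, strand setting or annotation. FPKM times length was a whole multiple of 1 step per library (100% of values, tolerance 0.01), which gave reads and depths. Whether these are reads or fragments is not stated. Poisson intervals and the 3-read limit cover counting error only, while the limma intervals rest on the moderated spread between libraries.

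Calls came from limma 3.58.1 (R 4.3.3) on log2(FPKM + 1), group only, moderated along intensity, with p-values adjusted by Benjamini-Hochberg over the 12299 genes averaging 1 FPKM or more. The members and lists were chosen with earlier results of these data known. Members past the threshold, the smooth-muscle type and Actb, Actg1, Myh9, Vcl, Flna and Cfl1 were named in full, and up to 3 called genes per list; values of other members were added after they were seen. Some results for the lists are not reported here. Of the members 34 had the same coordinates in GENCODE M21, whose transcripts gave GC content and shared stretches. Alternatives were other pseudocounts (0.1, 5), filters, scalings, no trend, array weights, a replicate block, voom, protein-coding genes only, GC and length (splines, 5 degrees of freedom) or chromosome medians removed, and each library left out; the array-weights fit stopped short of its convergence tolerance. The code was tested on simulated data.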

Additional observations from a re-analysis of the deposited data

How the results depend on the processing

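The 5 rises and 4 falls among members became 8 higher with a GC and length trend removed, and 2 lower with equal totals, with chromosome medians removed or with the replicate number as a block. Leaving out 1 library at a time gave 4 to 12 members higher and 1 to 4 lower, and over all tested genes 590 to 2572 higher and 923 to 2648 lower, with KD1 left out giving the upper end of each. Over all genes 2383 were higher with the GC and length trend removed. The replicate block gave 5 members higher; same-numbered libraries had correlations of deviations of 0.08, -0.04 and 0.15, so the numbers were not treated as pairs. Signs turned only in members that were not called. Actb was 0.00998 with equal totals, 0.0235 with array weights, 0.0195 with voom, 0.00438 with the GC and length trend removed and from -0.0625 to 0.0421 with 1 library left out. Cfl1 was -0.00436 with quantile normalization, -0.0436 with chromosome medians removed and from -0.14 without KD3 to 0.185 without KD1. Flna was -0.00952 with the GC and length trend removed. Cald1 ran from -0.0164 without KD1 to 0.0768 without KD2, and Myh9 from -0.232 without KD3 to 0.00552 without KD1. The causes were not tested. Values of Acta2, Myl9, Fhl1 and Tagln rest on 0 to 11 reads per library, and why so few were listed was not tested.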
